A study of Homo sapiens with 8 samples.

Results

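The genes that encode ATP-dependent chromatin remodelers were followed across 2 pancreatic ductal adenocarcinoma cell lines, with and without knockdown of the homeobox gene HOXB7. A member was any gene probe of the array whose deposited gene name begins with SMARC, ARID, BAZ or INO80, or with CHD and a digit, together with PBRM1, ATRX, EP400, SRCAP and HELLS. The rule used names alone and no measured value. It gave 69 probes of 47 genes, out of 34127 gene probes with 27274 gene names. By family these were 13 SWI/SNF genes, 6 ISWI genes, 9 CHD genes, 7 genes of the INO80 family, 5 other ATPases of the SNF2 superfamily and 7 ARID proteins that are not SWI/SNF subunits. A single probe stood for 29 genes and at least 2 probes for 18.

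RNA was hybridised to one-color Agilent arrays, 8 in all, with 2 arrays in each of 4 groups. MIA PaCa-2 was derived from a primary tumor and Capan-1 from a liver metastasis. The groups were MIA PaCa-2 HOXB7 siRNA, MIA PaCa-2 parental, Capan-1 HOXB7 siRNA and Capan-1 parental, where siRNA-treated cells had received 10 nM of the siRNA for 48 h. The labels do not state whether the arrays of a group came from separate cultures, and p-values then measure only the spread between these arrays. No array of cells given a control siRNA was analysed here, so that transfection itself and the loss of HOXB7 cannot be told apart. Each cell line lay on its own slide, and within a slide the siRNA arrays took the first positions and the parental arrays the last. Slide and cell line therefore cannot be told apart, nor can array position and treatment. The study kept MIA PaCa-2 in RPMI and Capan-1 in IMDM with more serum, so culture medium and cell line cannot be told apart either. It describes plating in RPMI before transfection, so medium may also go with treatment in Capan-1.

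Chromatin remodelers use the energy of ATP to slide, eject or exchange nucleosomes, which opens or closes DNA to transcription factors, polymerases and repair enzymes. SWI/SNF complexes mainly slide and evict nucleosomes at promoters and enhancers, ISWI complexes space them evenly, CHD proteins read histone marks, with several acting inside the repressive NuRD complex, and INO80-type complexes exchange variant histones. In pancreatic ductal adenocarcinoma several SWI/SNF genes, among them ARID1A, PBRM1 and SMARCA4, are recurrently mutated. The arrays measure RNA only, and fewer cells of a kind and less RNA per cell cannot be told apart.

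Several results turned on which 60-base probe was read, and the probes behind them are printed here in lower case, with hg18 positions as deposited. ARID1B and CHD2 come first because their probes gave different answers between the cell lines.
ARID1B A_33_P3291877, chr6:157511631-157511690, plus strand: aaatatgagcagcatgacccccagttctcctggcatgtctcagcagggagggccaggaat
ARID1B A_23_P70701, chr6:157570714-157570773, plus strand: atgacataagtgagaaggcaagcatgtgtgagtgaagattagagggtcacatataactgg
CHD2 A_24_P85317, chr15:91287261-91288666, plus strand: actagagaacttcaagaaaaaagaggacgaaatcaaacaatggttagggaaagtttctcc
CHD2 A_24_P184844, chr15:91365269-91365328, plus strand: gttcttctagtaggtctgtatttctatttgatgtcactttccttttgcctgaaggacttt
CHD2 A_24_P264664, chr15:91371829-91371888, plus strand: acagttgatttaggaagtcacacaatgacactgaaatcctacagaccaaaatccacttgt
The ARID1B probes lie 59083 bases apart. The first CHD2 probe is split over a stretch far longer than itself, as a probe across an exon junction is, and it starts 78008 bases before the second, which starts 6560 bases before the third.
The next set shows the single SMARCA1 probe, which carried the largest difference in the ISWI family, and the probe pairs of SMARCA2 and PBRM1, SWI/SNF genes of which 1 probe separated siRNA-treated from parental MIA PaCa-2 arrays and the other did not.
SMARCA1 A_23_P44244, chrX:128408347-128408406, minus strand: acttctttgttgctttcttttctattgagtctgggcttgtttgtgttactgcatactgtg
SMARCA2 A_23_P252764, chr9:2151718-2151777, plus strand: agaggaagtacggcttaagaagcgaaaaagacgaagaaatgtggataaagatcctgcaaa
SMARCA2 A_23_P60354, chr9:2182841-2182900, plus strand: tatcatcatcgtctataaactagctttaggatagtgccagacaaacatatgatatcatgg
PBRM1 A_33_P3330453, chr3:52554551-52554610, minus strand: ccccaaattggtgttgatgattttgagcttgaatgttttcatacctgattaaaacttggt
PBRM1 A_33_P3269578, chr3:52557099-52557158, minus strand: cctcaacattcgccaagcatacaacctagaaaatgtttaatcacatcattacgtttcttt
The last set gives the 3 probes of CHD5, which differed widely in size though not in direction, and the pair of INO80D, of which 1 differed between the lines and the other did not.
CHD5 A_23_P385263, chr1:6085580-6085639, minus strand: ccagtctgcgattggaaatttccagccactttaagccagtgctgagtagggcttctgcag
CHD5 A_33_P3419314, chr1:6087730-6087789, minus strand: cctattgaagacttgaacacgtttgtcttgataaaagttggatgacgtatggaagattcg
CHD5 A_33_P3419321, chr1:6103810-6103869, minus strand: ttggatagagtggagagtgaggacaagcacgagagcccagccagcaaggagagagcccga
INO80D A_33_P3330716, chr2:206566953-206567012, minus strand: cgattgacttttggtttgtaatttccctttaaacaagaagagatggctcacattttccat
INO80D A_23_P209652, chr2:206577854-206577913, minus strand: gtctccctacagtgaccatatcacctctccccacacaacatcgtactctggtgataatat

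A level is given throughout as the log2 processed intensity minus the 75th percentile of all gene probes on that array, so that 0 is that percentile and a step of 1 is a factor of 2. Because probes bind with different strength, a level was compared only with the same probe on another array. Between 69.2% and 74.3% of the gene spots of an array were well above background. Among the members, 60 of the 69 probes were well above background on all 8 arrays, and 45 of the 47 genes had such a probe, the exceptions being CHD5 and ARID3C. The arrays of a group differed by more than 2-fold for 0.602% to 1.04% of the probes well above background everywhere.

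The targeted gene read lower on the siRNA arrays of both lines. HOXB7 levels were -7.76 and -7.78 in MIA PaCa-2 siRNA and -4.82 and -4.09 in its parental cells. They were -5.26 and -4.80 in Capan-1 siRNA against -2.48 and -2.34 in its parental cells. The difference passed the test in MIA PaCa-2 (limma adjusted p = 0.0173). Neither siRNA array was well above background there, so the probe entered the test through the parental arrays alone. Against the lowest well-above-background signal it was 2.81-fold lower. In Capan-1 the difference was -2.62 ± 0.26 (SE) with a limma adjusted p of 0.121. With normexp, another background correction, these differences were -0.10 (adjusted p = 0.599, limma) and -0.66 (adjusted p = 0.0353, limma), so that the line in which the targeted gene passed depended on the correction. As run here it adds 50 to every intensity, where the median gene spot of an array had an intensity of 39.5 to 54.0. The folds of dim probes are therefore pulled toward 1 by this correction. Of 8 epithelial markers, all were well above background in Capan-1 and 5 in MIA PaCa-2, where CDH1, EPCAM and CEACAM6 were not. The 4 mesenchymal markers did not order the lines alike. VIM had a mean of 7.94 in parental MIA PaCa-2 and -1.06 in parental Capan-1, and made up most of a summed level of 7.89 to 8.32 on the MIA PaCa-2 arrays against 1.05 to 1.25 on the Capan-1 arrays. ZEB1 was also higher in parental MIA PaCa-2, at 1.17 against -3.74 with A_33_P3374723 and -0.71 against -5.84 with A_33_P3640690. CDH2 was the reverse, at -3.76 and 0.70 with its probe A_33_P3214159, and FN1 was not well above background on any MIA PaCa-2 array but was on both parental Capan-1 arrays. The 3 leukocyte markers (CD14, CD3E and PTPRC) each had a probe well above background in every group, which for PTPRC was A_33_P3364808 alone. Their summed levels were 1.63 to 2.02 in MIA PaCa-2 and -0.79 to -0.45 in Capan-1. In parental MIA PaCa-2 CD14 had a mean of 1.84, against -1.94 for PTPRC with that probe and -3.07 for CD3E. The fibroblast markers summed to -3.42 to -2.64 over all arrays with PDGFRB not above background in any group, and the endothelial markers to -1.85 to -1.26, with no PECAM1 probe above background on both arrays of any group. The part of these markers in the differences below was not tested.

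The first question was whether remodeler transcripts changed after HOXB7 knockdown. In MIA PaCa-2 none of the 47 genes passed the test, whereas 2.3% of all genes tested did. The smallest adjusted p among the 67 member probes tested was 0.0769, for the PBRM1 probe A_33_P3330453 (limma, Benjamini-Hochberg adjustment over all probes). At an unadjusted p under 0.05 there were 13 member probes, which among all probes tested held for 20.5%. Of the 13, 7 were lower (9.87% of all probes) and 6 higher (10.6%). They included 3 of the 17 SWI/SNF probes, all lower, and 4 of the 15 CHD probes, all higher, and no family was tested as such. The median difference over the members, with 1 probe per gene, was 0.0044, and that of all probes was 0.0216. The 95% confidence interval lay within a 2-fold change in either direction for 61 of the 67 probes.

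PBRM1, which encodes the bromodomain subunit that defines the PBAF form of SWI/SNF, had the smallest p. Its probe A_33_P3330453 read -1.12 and -1.19 in siRNA-treated MIA PaCa-2 cells and -0.62 and -0.29 in parental cells. Neither siRNA array reached a parental one, a separation found for 51.4% of all probes tested, and the difference was -0.70 ± 0.15 (SE). The other PBRM1 probe read -2.73 and -2.96 against -2.92 and -2.46, so the groups overlapped, with a difference of -0.15 ± 0.17. The call on the first probe depended on the processing, since its adjusted p was 0.0385 with another background correction, 0.0421 when only probes above background on all 8 arrays were tested and 0.0299 when the spread was allowed to follow intensity.

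SMARCA2, one of the alternative ATPases of SWI/SNF, had a similar pair of values in the same cells. Its probe A_23_P60354 read -3.81 and -3.55 after siRNA and -3.27 and -2.62 without it, with no overlap and a difference of -0.73 ± 0.22 (limma adjusted p = 0.145). The second probe read -4.46 and -4.91 against -4.62 and -4.34, with overlapping groups and a difference of -0.21 ± 0.18. For both genes one probe separated the groups and the other did not. The other SWI/SNF probe at an unadjusted p under 0.05 was one of SMARCE1, the HMG-box subunit, at -0.22 ± 0.08.

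Among the CHD genes, CHD1, which binds methylated histone tails at active genes, read -0.07 and -0.26 in MIA PaCa-2 siRNA and -0.86 and -0.52 in parental cells. The difference of 0.52 ± 0.14 had an adjusted p of 0.125, and of 0.0476 with the other background correction. CHD7, a remodeler of developmental enhancers, read -1.19 and -1.29 against -1.63 and -1.52, a difference of 0.34 ± 0.09 (limma adjusted p = 0.113). CHD9 with A_23_P372638 and CHD2 with A_24_P184844 made up the 4, at 0.25 ± 0.09 and 0.36 ± 0.14. The other probes of CHD9 and CHD2 had unadjusted p-values above 0.05.

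Both probes of SMARCAD1, a remodeler that restores silent chromatin behind replication forks, were lower on the siRNA arrays of MIA PaCa-2. The first read 0.43 and 0.32 against 0.69 and 0.65, and the second -1.62 and -1.70 against -1.32 and -1.30. No siRNA array reached a parental array with either probe, and the differences were -0.29 ± 0.08 and -0.35 ± 0.10, with limma adjusted p-values of 0.129 and 0.133. The fork-annealing enzyme SMARCAL1 read 1.99 and 1.70 against 2.38 and 2.21, a difference of -0.45 ± 0.14 with an adjusted p of 0.157, which was 0.0166 with the other background correction. One array stood apart for CHD1L, a remodeler recruited to DNA damage. Its probe A_23_P45831 read 0.46 and 1.49 in siRNA-treated and 1.33 and 1.35 in parental MIA PaCa-2 cells, so that leaving out siRNA replicate 2 gave -0.87 with an adjusted p of 0.0332, against -0.36 with an adjusted p of 0.563 on all arrays.

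In Capan-1, 46 of the 47 genes could be tested and none passed, against 0.0053% of all genes, which was 1 gene. The smallest adjusted p of a member was 0.211. At an unadjusted p under 0.05 there were 11 member probes, which held for 12.4% of all probes tested, and 8 of them were lower (6.59% of all probes) and 3 higher (5.85%). The median over the members, with 1 probe per gene, was -0.0501 and that of all probes -0.0008. The 95% confidence interval lay within a 2-fold change for 60 of the 64 probes.

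The smallest p in Capan-1 belonged to ARID3B, a DNA-binding protein of the ARID3 group. It read 1.02 and 0.99 after siRNA and 0.41 and 0.45 without it, a difference of 0.57 ± 0.11. In MIA PaCa-2 the same probe read 0.40 and 0.48 against 0.26 and -0.01, a difference of 0.31 ± 0.11 (limma adjusted p = 0.189). The siRNA arrays lay above the parental arrays in both lines, although neither difference passed the test.

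SMARCA5, the main ISWI ATPase of most cells, showed the same order in both lines. In Capan-1 it read 0.26 and 0.35 against -0.13 and -0.15, a difference of 0.45 ± 0.13. The MIA PaCa-2 values were 0.02 and 0.05 against -0.42 and -0.08, a difference of 0.28 ± 0.13. The limma adjusted p-values were 0.307 and 0.275, and scaling the arrays to the spike-in probes turned the Capan-1 difference to -0.0076. Its relative SMARCA1 differed by -0.13 ± 0.22 in Capan-1 and -0.26 ± 0.22 in MIA PaCa-2. ARID3B and SMARCA5 were also the 2 member probes of Capan-1 above the range covered by 99% of the ratios between the parental replicates at like intensity, a limit that 1.99% of all probes passed, while in MIA PaCa-2 no member and 0.588% of all probes did.

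EP400, the ATPase of the TIP60 acetyltransferase complex, lay lower on the siRNA arrays of both lines. It read -2.29 and -2.34 against -1.97 and -1.88 in Capan-1, and -1.58 and -1.62 against -1.12 and -1.35 in MIA PaCa-2. The groups did not overlap in either line, which held for 54.3% and 51.4% of all probes tested. The differences were -0.39 ± 0.10 and -0.36 ± 0.10, with limma adjusted p-values of 0.294 and 0.133. The remaining Capan-1 values of this rank were those of CHD5, a NuRD ATPase best known from neurons, and of CHD6. CHD5 with A_33_P3419321 read -5.53 and -5.43 against -5.10 and -4.82, and neither siRNA array was well above background, so that the difference of -0.52 ± 0.13 rests on background values on one side (limma adjusted p = 0.279). With the other background correction it was 0.11, in the opposite direction. CHD6 with A_24_P943575 read -0.32 and -0.41 against -0.10 and -0.08, a difference of -0.28 ± 0.08 (limma adjusted p = 0.327).

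**Figure D1:**
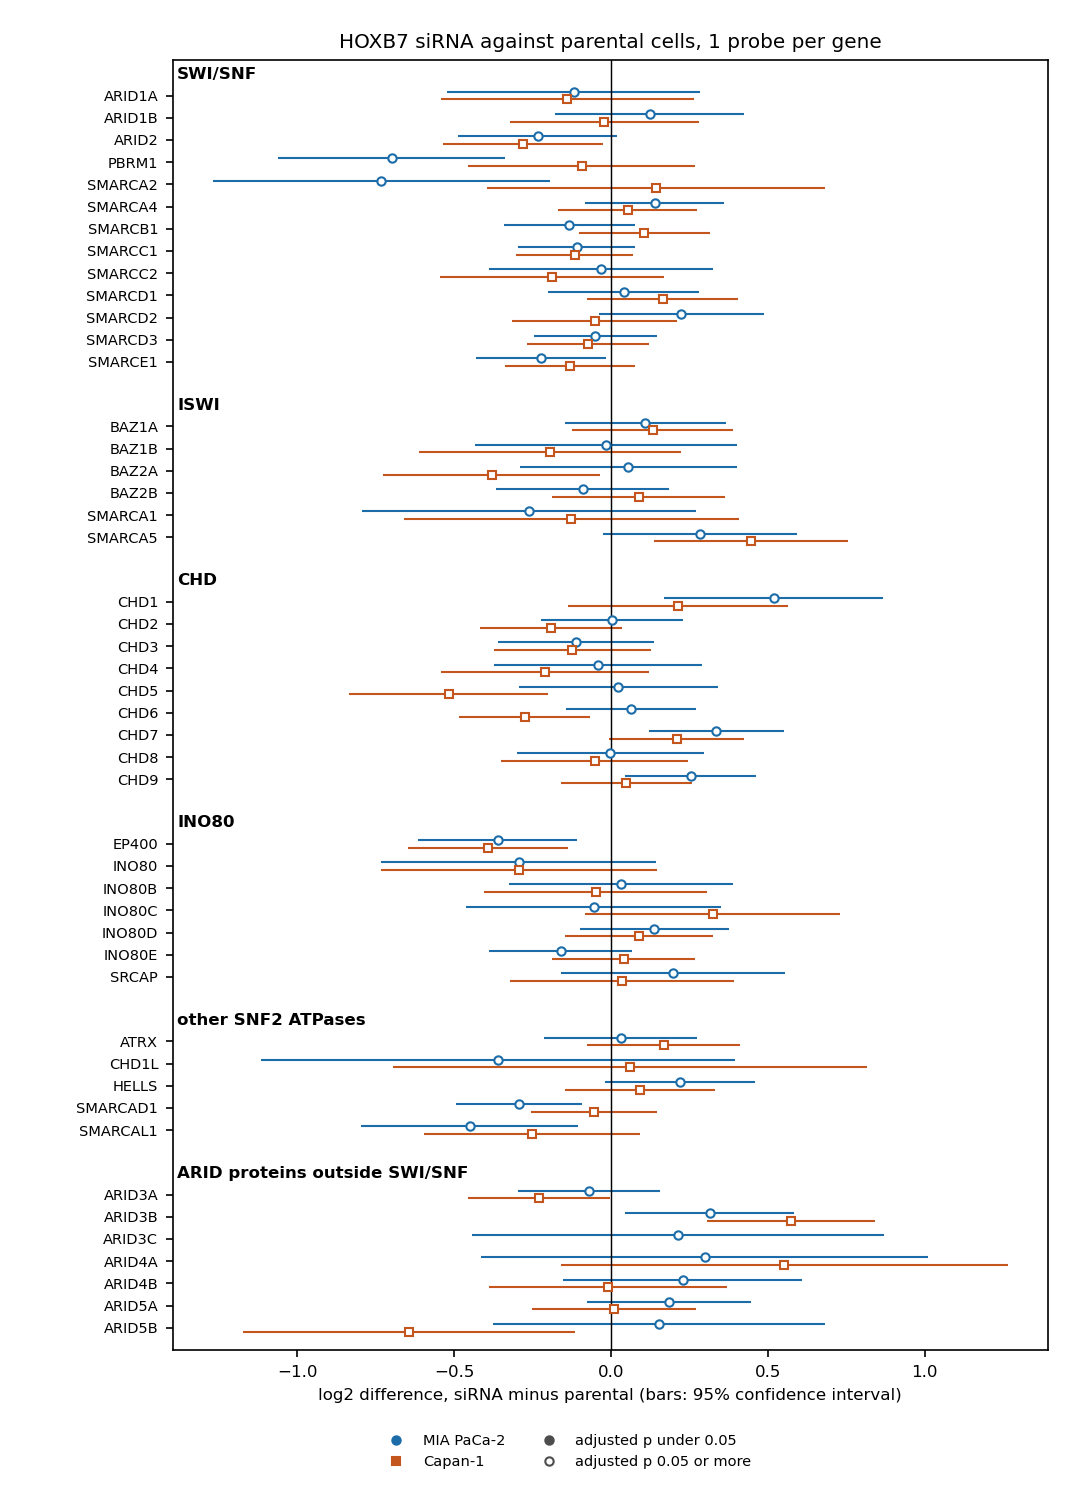
Log2 difference between HOXB7 siRNA-treated and parental cells for the brightest probe of each of the 47 genes, grouped by family (x axis, log2 units), in MIA PaCa-2 (circles) and Capan-1 (squares), with 95% confidence intervals from limma. All symbols are open because no member passed an adjusted p of 0.05, and the interval of most genes crosses 0.

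Whether the lines responded differently was tested as the difference of both siRNA contrasts, which share the estimate of the spread. No member passed, against 0.00972% of all genes, and the smallest adjusted p was 0.31. At an unadjusted p under 0.05 there were 7 member probes, against 11.1% of all probes, and in 3 the MIA PaCa-2 value was the lower (4.88% of all probes) and in 4 the higher (6.18%). The smallest p was that of ARID3C, whose probe was not well above background on any Capan-1 array, so that its response there was not measured. The siRNA difference of SMARCA2 with A_23_P60354 was -0.73 in MIA PaCa-2 against 0.14 for Capan-1, a gap of -0.87 ± 0.31 (limma adjusted p = 0.396), or -0.26 with normexp. PBRM1 with A_33_P3330453 differed by -0.70 and -0.09, a gap of -0.60 ± 0.21 (limma adjusted p = 0.382). The second probes of SMARCA2 and PBRM1 gave smaller gaps of -0.30 ± 0.26 and -0.32 ± 0.24.

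The second question was how remodeler levels differed between the cell lines. In parental cells 35 of the 47 genes passed the test, which was 74.5% against 73.2% of all genes, so the share of members that differed was close to that of the array as a whole. By direction 12 genes were lower in MIA PaCa-2 (31.7% of all genes were), 22 were higher (40.1% of all genes were) and CHD2 passed in both directions with different probes. The median over the members was 0.25 and over all probes 0.11. The arrays of the lines did not overlap for 59 of the 69 member probes, and for 86.5% of all probes. Scaling to the spike-in probes moved the median of all probes to -0.14, and the split of the members was then 13 lower and 14 higher. Over all probes 8946 were then lower and 6842 higher, in place of 7740 and 9780. No gene that passed in one direction passed in the other under any of the 19 alternatives, and 22 of the 35, CHD2 included, passed in some direction under all of them. The members that did not pass were ARID2, ARID4A, BAZ2A, CHD1L, CHD6, CHD8, INO80C, INO80E, SMARCA5, SMARCC1, SMARCC2 and SRCAP.

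The SWI/SNF family was split, with 5 of 13 genes lower in MIA PaCa-2 (31.7% of all genes were) and 5 higher (40.1%). It had 5 lower and 5 or 6 higher under the other scalings. Its alternative ATPases went in opposite directions. SMARCA4 read 4.63 and 4.70 in parental MIA PaCa-2 and 3.65 and 3.49 in parental Capan-1, so that MIA PaCa-2 was 2.13-fold higher. SMARCA2 with A_23_P252764 read -4.62 and -4.34 against -2.52 and -2.37, so that Capan-1 was 4.10-fold higher, and its other probe gave 2.42-fold in the same direction. With normexp these differences shrank to -0.68 and -0.58 on the log2 scale and still passed. The arrays of the lines did not overlap for any of these probes, and the limma adjusted p-values were 0.0001 for SMARCA4 and 0.000143 and 0.00257 for SMARCA2.

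Among the targeting subunits, those lower in MIA PaCa-2 came from both forms of the complex. ARID1A, the DNA-binding subunit of the BAF form, read -2.41 and -2.84 against -1.41 and -1.41, 2.33-fold higher in Capan-1 (limma adjusted p = 0.000877). PBRM1 was 2.26-fold and 2.43-fold higher in Capan-1 with its 2 probes (2.09-fold and 1.54-fold with normexp), while ARID2, which marks the same PBAF form, did not pass at 0.25 ± 0.10. SMARCE1 was also lower in MIA PaCa-2, by 0.54 ± 0.08 and 0.58 ± 0.14 with its 2 probes.

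The subunits higher in MIA PaCa-2 were the core protein SMARCB1 and all members of the SMARCD group, of which each complex carries one as a link to transcription factors. SMARCD3 read 3.60 and 3.50 in parental MIA PaCa-2 and 0.95 and 0.91 in parental Capan-1, 6.13-fold apart, with the smallest adjusted p of any member (1.84e-06, limma). The siRNA-treated cells repeated the gap, at 3.51 and 3.49 against 0.87 and 0.85. SMARCD1 and SMARCD2 were 2.09-fold and 1.71-fold higher in MIA PaCa-2, and SMARCB1 1.99-fold and 2.13-fold with its 2 probes. The scaffold proteins SMARCC1 and SMARCC2 did not pass, with differences of -0.10 ± 0.08 and 0.14 ± 0.15.

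For ARID1B, the subunit that can take the place of ARID1A, the result rested on the probe. A_23_P70701 read -1.10 and -1.02 in parental Capan-1 and -1.10 and -1.19 in its siRNA-treated cells, well above background on each array. Parental MIA PaCa-2 cells gave -6.71 and -7.60, neither well above background, and siRNA-treated MIA PaCa-2 cells gave -5.43 and -7.73, of which the first was. Against the lowest well-above-background signal Capan-1 was 30.7-fold higher in parental cells (limma adjusted p = 0.000469). This fold holds for this background correction only, since normexp gave 3.62-fold. The probe entered that test through Capan-1 alone, so the filter set its direction. The other probe, A_33_P3291877, read -1.63 and -1.70 in parental MIA PaCa-2 against -1.65 and -1.49 in parental Capan-1, overlapping groups with a difference of -0.10 ± 0.12. At one position ARID1B thus read alike in both parental lines, and at the other it was not well above background in parental MIA PaCa-2.

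**Figure D2:**
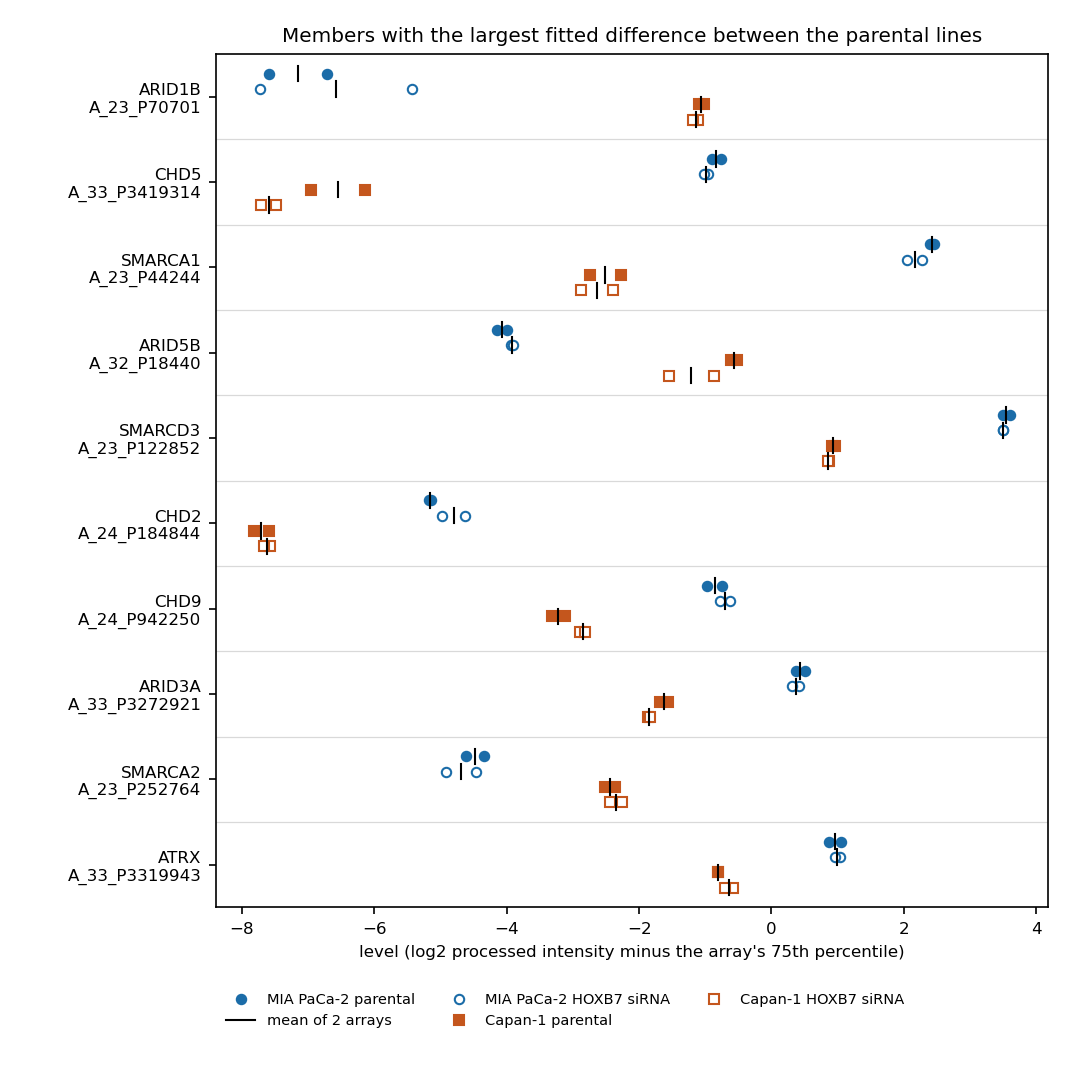
Levels on each array (x axis, log2 processed intensity minus the 75th percentile of the array) for the 10 genes with the largest fitted difference between parental lines, each with the probe named. Filled symbols are parental and open symbols siRNA-treated cells, circles MIA PaCa-2 and squares Capan-1, and bars are means of 2 arrays. For each probe the arrays of one line lie apart from those of the other. ARID1B in MIA PaCa-2, from -7.73 to -5.43, and CHD5 in Capan-1 spread the most within a line, and since these values and those of CHD2 in Capan-1 lie at or near background, the rank of these 3 genes is not settled.

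In the ISWI family 4 of 6 genes were higher in MIA PaCa-2 (40.1% of all genes were) and none was lower (31.7%). Under spike-in scaling 2 were higher and SMARCA5 was lower. SMARCA1, the ISWI ATPase linked to neuronal differentiation, read 2.40 and 2.45 in parental MIA PaCa-2 and -2.74 and -2.28 in parental Capan-1. MIA PaCa-2 was 30.7-fold higher (limma adjusted p = 7.02e-06), or 16.03-fold with normexp, and the siRNA-treated cells read 2.28 and 2.06 against -2.88 and -2.40. SMARCA5 read -0.42 and -0.08 against -0.13 and -0.15, with overlapping groups and a difference of -0.11 ± 0.13. Of the ISWI ATPases, SMARCA1 separated the lines on every array and SMARCA5 did not.

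The regulatory ISWI subunits differed less. BAZ2B was 1.80-fold higher in MIA PaCa-2 (limma adjusted p = 0.000818). BAZ1B, which pairs with SMARCA5 in the WICH complex, was 1.35-fold and 1.67-fold higher with its 2 probes, but did not pass under spike-in scaling. BAZ1A, the ACF subunit that helps to space nucleosomes, was 1.26-fold higher (limma adjusted p = 0.0284), and BAZ2A, the ribosomal gene silencer, did not pass at -0.07 ± 0.14. The BAZ1A call was lost without MIA PaCa-2 parental replicate 2 or without either Capan-1 parental array, and also with no or spike-in scaling and without the filter on dim probes.

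Of the 9 CHD genes, 5 were higher in MIA PaCa-2 (40.1% of all genes were), CHD7 was lower (31.7%) and CHD2 passed both ways. The count of higher genes was 3 to 4 under the other scalings. CHD5 had the largest fitted difference of the family. Its probe A_33_P3419314 read -0.76 and -0.90 in parental MIA PaCa-2 and -6.14 and -6.97 in parental Capan-1. No Capan-1 array was well above background, so the probe entered the test through MIA PaCa-2 alone and the filter set its direction. Against the lowest well-above-background signal MIA PaCa-2 was 33.7-fold higher (limma adjusted p = 7.99e-06). The other CHD5 probes gave 4.85-fold and 4.27-fold in the same direction. With normexp the 3 folds were 3.24, 1.34 and 1.49, each still called. All 3 probes placed every MIA PaCa-2 array above every Capan-1 array.

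CHD3 and CHD4, the NuRD ATPases found in most tissues, differed much less than CHD5. CHD3 read 1.54 and 1.36 against 0.86 and 0.86, higher in MIA PaCa-2 by 0.59 ± 0.10 (limma adjusted p = 0.00266), a call lost under spike-in scaling. CHD4 read 2.44 and 2.17 against 1.92 and 1.92, 1.30-fold higher with an adjusted p of 0.0456. The CHD4 call was lost without MIA PaCa-2 parental replicate 1 and without any single array of Capan-1, and also with normexp, under every other scaling, without the filter on dim probes, on the 4 parental arrays alone and with the replicate block.

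CHD9 and CHD1 were higher in MIA PaCa-2 with all their probes. CHD9 read 0.70 and 0.73 against -1.31 and -1.24 with A_23_P372638 and -0.97 and -0.74 against -3.32 and -3.12 with A_24_P942250, so that MIA PaCa-2 was 3.98-fold and 5.14-fold higher, or 2.93-fold and 2.35-fold with normexp. CHD1 read -0.86 and -0.52 against -2.06 and -1.88, 2.44-fold higher (limma adjusted p = 0.000362). CHD8, a partner of beta-catenin, read 2.18 and 1.94 against 2.13 and 2.22 and did not pass. CHD6 did not pass in parental cells, and CHD7 was lower by 0.28 ± 0.09, a call lost without MIA PaCa-2 parental replicate 1, either Capan-1 parental array or Capan-1 siRNA replicate 2, and also with quantile or no scaling, without the filter on dim probes and on the 4 parental arrays alone.

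CHD2, which supports variant histone deposition and gene activity, gave opposite calls. A_24_P184844, the middle one of the 3 sequences above, read -5.17 and -5.15 in parental MIA PaCa-2 and -7.60 and -7.82 in parental Capan-1, where it was not well above background on any array. Against the lowest well-above-background signal MIA PaCa-2 was 1.68-fold higher (limma adjusted p = 1.84e-05). This probe entered the test through MIA PaCa-2 alone, so the filter set its direction. The probe on its right, A_24_P264664, read 0.19 and 0.24 against 0.70 and 0.71, and the probe on its left, A_24_P85317, read -4.68 and -4.41 against -3.95 and -3.76. Both were lower in MIA PaCa-2, by 0.49 ± 0.09 and 0.69 ± 0.19, with limma adjusted p-values of 0.00379 and 0.0188. The call of A_24_P184844 was lost with the other background correction, where the difference was 0.24 with an adjusted p of 0.0831, and the probe was not tested when signal on all 8 arrays was required. The call of A_24_P85317 was also lost with that correction, at -0.20 with an adjusted p of 0.117.

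**Figure D3:**
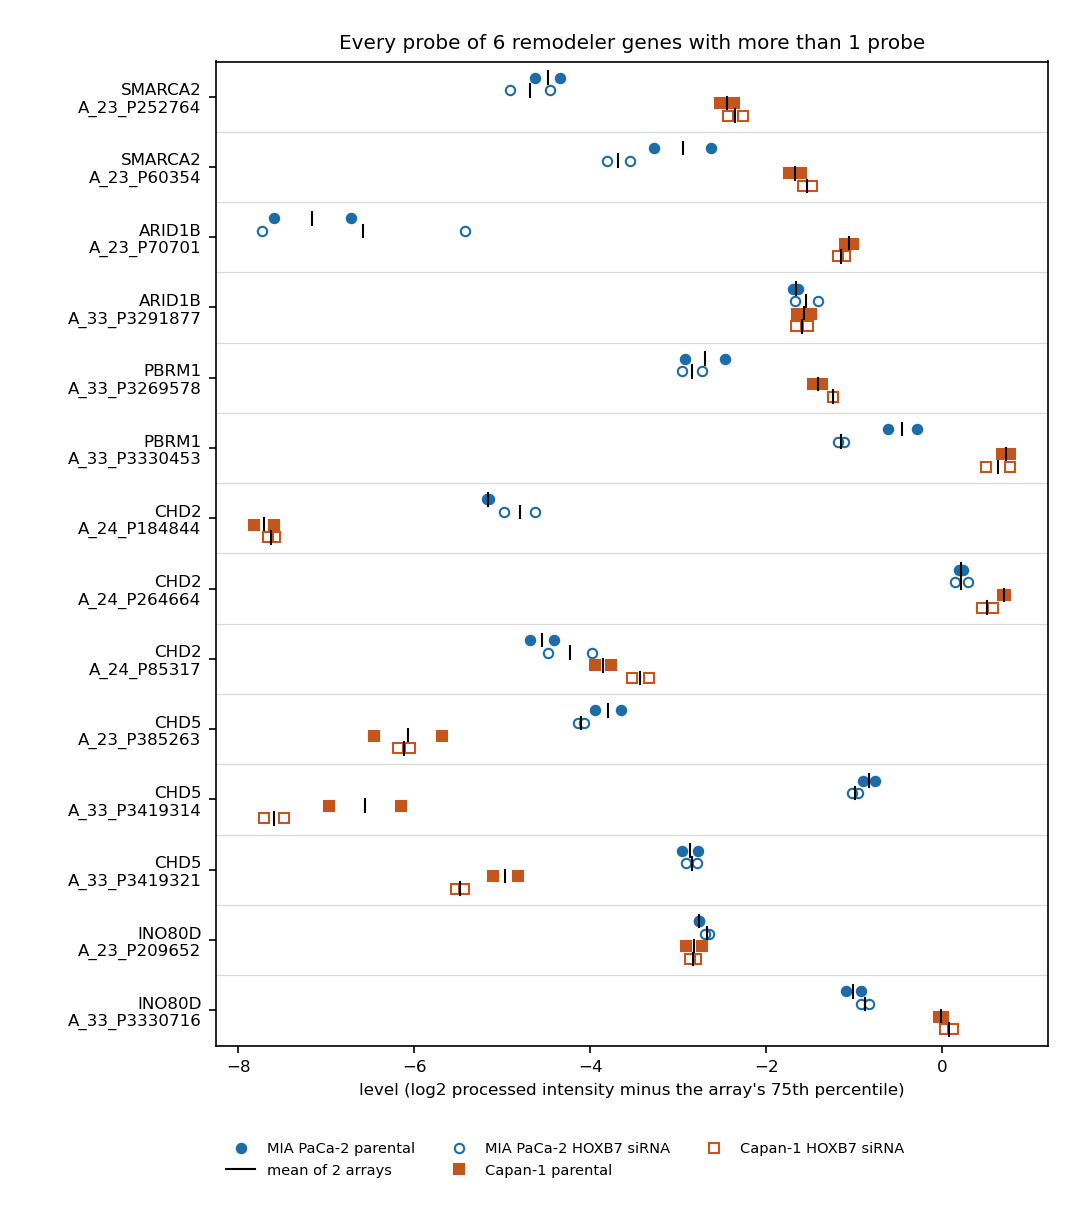
Levels on each array (x axis, log2 processed intensity minus the 75th percentile of the array) for every probe of SMARCA2, ARID1B, PBRM1, CHD2, CHD5 and INO80D, with symbols for lines and treatments as in the legend and bars at the mean of 2 arrays. The ARID1B probes and the CHD2 probes place the lines differently, and the CHD5 probes place MIA PaCa-2 higher in all 3 cases by very different amounts.

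In the INO80 family INO80, INO80B and INO80D of 7 genes were lower in MIA PaCa-2 (31.7% of all genes were) and EP400 was higher (40.1%). The 3 lower genes stayed lower under each of the scalings, while EP400 did not pass under spike-in scaling. INO80, the ATPase itself, read -2.13 and -2.50 in parental MIA PaCa-2 and -1.55 and -1.46 in parental Capan-1, differing by -0.81 ± 0.18 (limma adjusted p = 0.00739). Its dimmer probe gave -1.25 ± 0.41 in the same direction, a call lost with normexp at -0.21. INO80B was lower by 0.70 ± 0.15. EP400 read -1.12 and -1.35 against -1.97 and -1.88 and was 1.61-fold higher in MIA PaCa-2 (limma adjusted p = 0.00146). SRCAP, which loads a variant histone at promoters, read -2.79 and -2.90 against -2.70 and -2.45, and its difference of -0.27 ± 0.15 did not pass.

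INO80D, a subunit of the same complex, was another gene with unlike probes. A_33_P3330716 read -1.10 and -0.92 in parental MIA PaCa-2 and 0.01 and -0.04 in parental Capan-1, differing by -0.997 ± 0.096 (limma adjusted p = 0.000194). A_23_P209652 read -2.76 and -2.77 against -2.73 and -2.91, a difference of 0.06 ± 0.09. The remaining subunits INO80C and INO80E did not pass in parental cells.

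Of the other SNF2 ATPases, 4 of 5 were higher in MIA PaCa-2 (40.1% of all genes were) and none was lower (31.7%). The number higher was 2 without scaling and under spike-in scaling. ATRX, which keeps repeats and telomeres silent, passed with 3 of its 4 probes. With A_33_P3319943 it read 0.87 and 1.05 in parental MIA PaCa-2 and -0.81 and -0.80 in parental Capan-1, 3.41-fold higher, and the other probes that passed gave 2.63-fold and 2.22-fold. The fourth ATRX probe, above background only in part of the arrays, had a difference of 1.52 ± 0.79 and an adjusted p of 0.132. HELLS, needed for DNA methylation at repeats, read -0.56 and -0.57 against -1.31 and -1.29 with A_33_P3258117, 1.67-fold higher in MIA PaCa-2 (limma adjusted p = 0.000473), but 0.19 and 0.36 against 0.25 and 0.19 with A_23_P12816, which did not pass at 0.06 ± 0.10.

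SMARCAD1 and SMARCAL1 were slightly higher in parental MIA PaCa-2, by 0.37 ± 0.08 and 0.30 ± 0.10 for the SMARCAD1 probes and 0.41 ± 0.14 for SMARCAL1. The SMARCAD1 call was lost with no and spike-in scaling, and its second probe lost the call with normexp, at 0.13. Neither gene passed in siRNA-treated cells. The gap between parental and siRNA-treated cells is the difference of the siRNA contrasts, which was -0.24 ± 0.12 and -0.40 ± 0.14 for the SMARCAD1 probes and -0.20 ± 0.20 for SMARCAL1, with limma adjusted p-values of 0.514, 0.396 and 0.748. The SMARCAL1 call was lost when any one of 5 arrays was left out, namely either MIA PaCa-2 parental array, either Capan-1 siRNA array or Capan-1 parental replicate 2, and also under every other scaling, without the filter on dim probes and on the 4 parental arrays alone.

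The ARID proteins outside SWI/SNF were divided, with ARID3A, ARID3C and ARID4B higher in MIA PaCa-2 (40.1% of all genes were) and ARID3B, ARID5A and ARID5B lower (31.7%). ARID4B did not pass under spike-in scaling and ARID3B did not pass without scaling. ARID5B, a partner of a histone demethylase, read -4.14 and -4.00 in parental MIA PaCa-2 and -0.61 and -0.53 in parental Capan-1, so that Capan-1 was 11.4-fold higher (limma adjusted p = 2.82e-05), or 3.39-fold with normexp. Its siRNA-treated cells read -3.93 and -3.91 in MIA PaCa-2 and -1.55 and -0.87 in Capan-1. The second ARID5B probe gave 2.36-fold in the same direction, a call lost with normexp, where it was 1.17-fold.

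ARID3A, a DNA-binding protein first known as a B-cell activator of immunoglobulin genes, read 0.37 and 0.50 against -1.57 and -1.68 and was 4.16-fold higher in MIA PaCa-2 (limma adjusted p = 7.47e-06). ARID5A, which stabilises cytokine transcripts, was 2.81-fold and 1.22-fold higher in Capan-1 with its 2 probes. The call of the second was lost with normexp, where it was 1.11-fold. No Capan-1 array was well above background for ARID3C, which entered the test through MIA PaCa-2 alone, so the filter set its direction. Against the lowest well-above-background signal ARID3C was 1.79-fold higher in MIA PaCa-2. With normexp its difference was 0.12 on the log2 scale and the call was lost (limma adjusted p = 0.337). Among the RB-binding proteins, ARID4B was higher by 0.57 ± 0.15 and ARID4A did not pass at 0.42 ± 0.29. The calls of ARID3B and ARID4B were lost when certain single arrays were left out, for ARID4B either MIA PaCa-2 parental replicate 2 or Capan-1 parental replicate 1, and for ARID3B any array other than MIA PaCa-2 parental replicate 1. The ARID3B call was also lost without the filter on dim probes, on the 4 parental arrays alone and with the replicate block.

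The comparison of the lines was made again in siRNA-treated cells, which are other arrays of the same 2 lines on the same slides. There 36 of the 47 genes passed, 76.6% against 73.3% of all genes, with 12 lower (30.7% of all genes), 23 higher (41.1% of all genes) and CHD2 in both directions. Under spike-in scaling, which moved the median of all probes from 0.16 to 0.39, the members were 8 lower and 25 higher. Over all probes 5529 were then lower and 11368 higher, in place of 7603 and 10144. By probe, 20 member probes were lower and 31 higher in parental MIA PaCa-2, against 31.0% and 39.2% of all probes, and 18 were lower and 32 higher in siRNA-treated cells, against 30.1% and 40.2%. Of the 20 member probes lower in parental MIA PaCa-2, 17 were lower in siRNA-treated cells too, which was 85.0% of the parental and 94.4% of the siRNA calls. Of the 31 probes higher in parental MIA PaCa-2, 28 were higher in siRNA-treated cells, 90.3% and 87.5% of the calls. No member probe was called in opposite directions. The same overlap was not computed over all probes, so these shares cannot be set against the array and are not shown to be particular to the members. Genes that passed only in siRNA-treated cells were ARID2, CHD1L, CHD6 and INO80E, and those that passed only in parental cells were CHD7, SMARCAD1 and SMARCAL1, with no member passing the test of the difference.

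**Figure D4:**
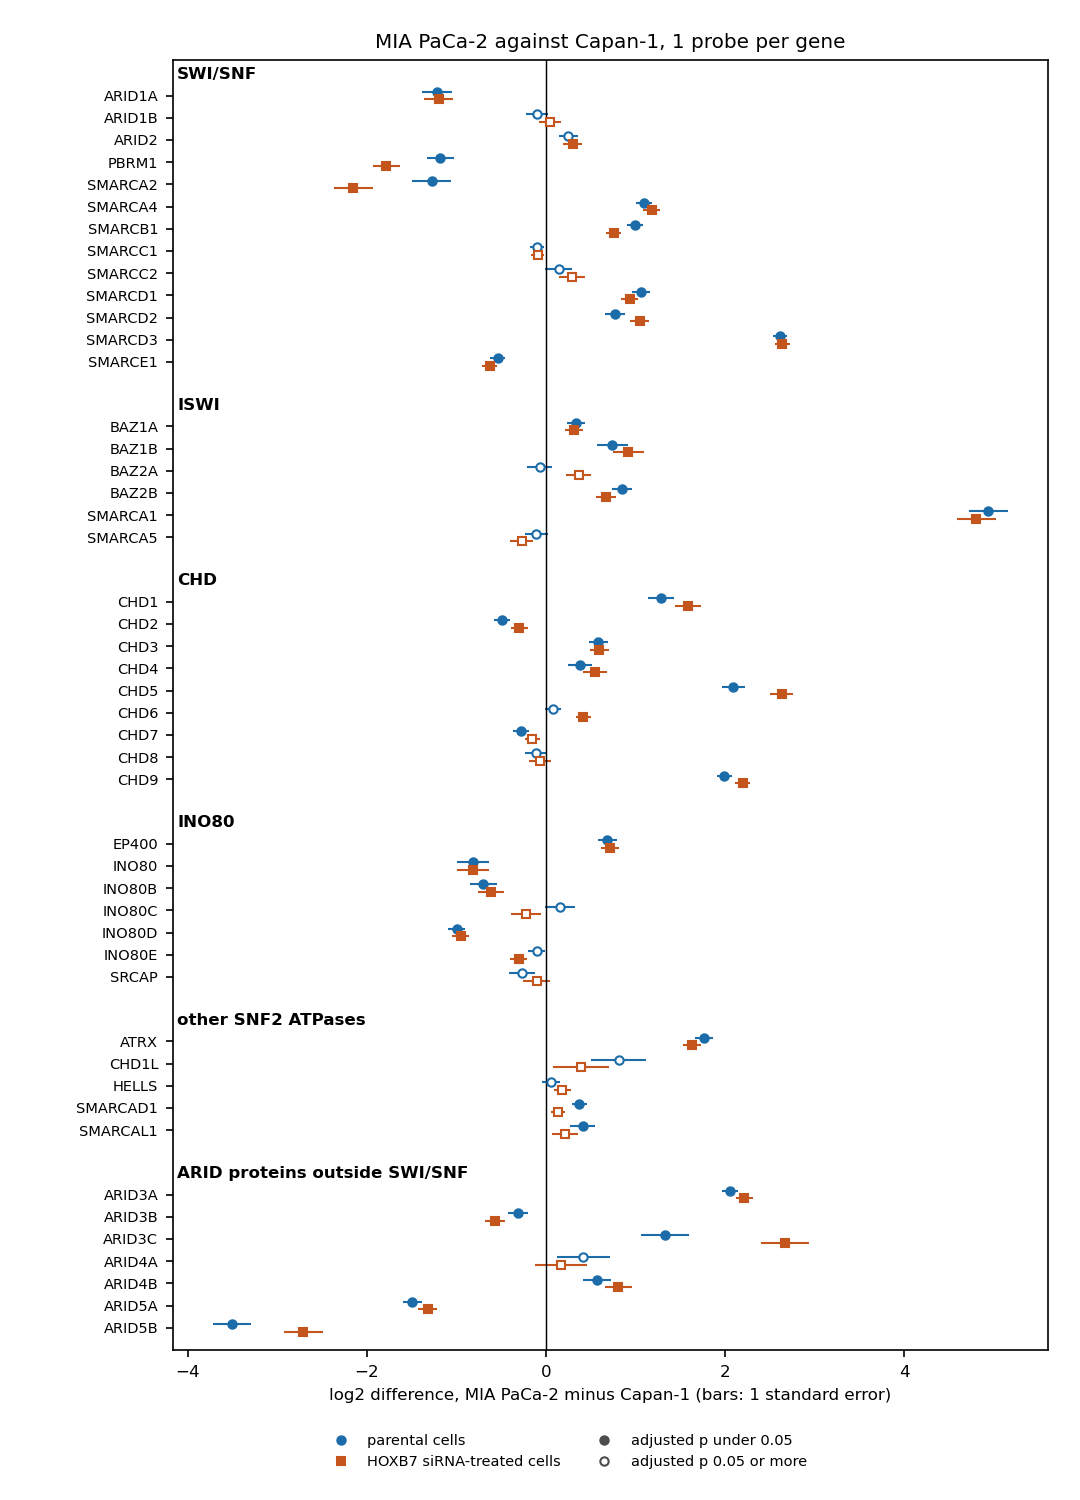
Log2 difference between MIA PaCa-2 and Capan-1 for 1 probe of each gene by family (x axis, log2 units, MIA PaCa-2 minus Capan-1, bars of 1 standard error from limma), in parental (circles) and siRNA-treated cells (squares). The probe is the one well above background on the most arrays, and among equals the brightest. Filled symbols passed an adjusted p of 0.05. SMARCA1 lies at 4.94 and 4.81 and ARID5B at -3.51 and -2.71, and for ARID1B the probe shown does not differ. CHD5 is shown by A_33_P3419321, which is not its brightest probe.

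Members with at least 2 tested probes allowed a check within genes. Of these 18 genes, 11 had all their probes called the same way between the parental lines, 4 had some probes called and others not, CHD2 had calls both ways, and 2 had none. The 4 genes with partial calls were ARID1B, ATRX, HELLS and INO80D. With the processing reported, agreement of probes was the more common case among these genes, and ARID1B and CHD2 were the exceptions with the widest gaps between probes. The share over all genes with several probes was not computed, so this agreement is not shown to be particular to the members. CHD5, called alike with all its probes, spanned 3.63 on the log2 scale, more than CHD2 at 3.25. With normexp the dimmer probes of ARID5A, ARID5B, INO80 and SMARCAD1 lost the call, and CHD2 no longer passed in both directions.

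The subunits that work with these enzymes but fall outside the name rule were counted from lists of 55 genes. After HOXB7 siRNA 1 of the 54 tested passed in MIA PaCa-2, the SWI/SNF subunit BCL7A, where 2.3% of all genes passed, and none of 54 passed in Capan-1, where 0.0053% did. BCL7A read -0.02 and -0.20 in siRNA-treated and -0.99 and -0.73 in parental MIA PaCa-2 cells, 1.68-fold higher (limma adjusted p = 0.0462). Between the parental lines 42 of the 55 passed, 76.4% against 73.2% of all genes, with 15 lower in MIA PaCa-2 (31.7% of all genes), 26 higher (40.1%) and TFPT in both directions, so that the partners passed about as often as other genes.

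By family, 7 of 7 ISWI partners passed (73.2% of all genes did), 6 of them higher and CHRAC1 lower in MIA PaCa-2. Of all genes 31.7% were lower and 40.1% higher, and no list was tested as such. Of the SWI/SNF partners 6 were lower and 6 higher among 15, of the NuRD partners 2 were lower and 6 higher among 10, and of the INO80 partners 6 were lower and 8 higher among 23. The partner with the largest difference was MBD2, the methyl-DNA binding subunit of NuRD. Its probe A_23_P15864 read -8.05 and -7.33 in parental MIA PaCa-2, neither well above background, and 2.12 and 2.11 in parental Capan-1. Against the lowest well-above-background signal Capan-1 was 277-fold higher (limma adjusted p = 6.63e-07), while normexp gave 21.8-fold. The probe entered the test through Capan-1 alone, so the filter set its direction. The second MBD2 probe was not well above background on any array. BRD7 and PHF10, which belong to PBAF like PBRM1, lay in the direction opposite to that of PBRM1. BRD7 was 4.60-fold higher in MIA PaCa-2, and PHF10 was 15.7-fold and 2.05-fold higher with its 2 probes, of which the first was 2.98-fold with normexp.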

How the data were processed

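The 8 arrays were Agilent 60-base oligonucleotide arrays, scanned and extracted by the authors. The authors deposited, for each array, the Feature Extraction output (version 9.5.3 per the submitters' processing notes), which holds for every spot a processed intensity after background subtraction, the outlier flags and a call of signal over background. A second file the authors deposited gives log2 of the same intensity, and no scaling between arrays had been done in either. Positions are hg18 as deposited, and no hg18 annotation was used here, so that exon or UTR was not assigned. All 47 gene names are current symbols, and 66 of the 69 member probes matched RefSeq (GRCh38.p14 gene table) by accession with the same symbol.

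The log2 intensities of the unflagged spots of a probe were averaged, and the 75th percentile over gene probes was subtracted on each array. All 4 group means were fitted together in limma 3.58.1 (lmFit, eBayes, R 4.3.3), and contrasts were tested two-sided. A probe entered a contrast when both arrays of 1 or more of its groups were well above background, and p-values were adjusted over all such probes by Benjamini-Hochberg. Where the other group had no array well above background, this filter set the direction, and the p-value is no separate support for it. An adjusted p under 0.05 was called, and the direction of a gene is that of its probes that passed, or both where these disagreed. An exact permutation test of 2 against 2 arrays cannot go below 0.333 and was not used. For a group with no array well above background, the fold was computed against the lowest well-above-background signal of each array, or the probe's own level where higher. That signal is not a detection limit, since other probes not well above background can read higher. Such folds are therefore no strict lower bounds and can be overstated. The methods' interval of 99% of the parental log2 ratios was recomputed in windows of 500 probes. Python 3.11.15 was used for the rest (matplotlib 3.10.9, numpy 2.4.6, pandas 2.3.3, scipy 1.17.1), and the fit was tested on simulated data. The number of arrays limits the precision.

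Members and lists were chosen with earlier results of these data known. Named are HOXB7, every member past the threshold in a siRNA contrast or otherwise the 5 smallest p-values, the 10 largest fitted differences between parental lines in full, some of them against background, the family ATPases, and genes with unlike probes. Partners, PBRM1 and SMARCA2 second probes and members called only under an alternative were named after their values were seen. The alternatives were normexp background correction (offset 50), quantile, no and spike-in scaling, outlier spots kept, the log2 table, the filter on dim probes, the 4 arrays of a comparison alone, a block for replicate number, an intensity trend and each array left out.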

Additional observations from a re-analysis of the deposited data

How the results depend on the processing

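For the siRNA contrast in MIA PaCa-2 no member passed with the processing reported. Normexp background correction gave 2 members lower (PBRM1 and SMARCAL1) and 1 higher (CHD1). Testing only probes well above background on all 8 arrays gave 1 lower (PBRM1), as did letting the spread follow intensity. Calls over all probes rose as well, from 222 lower and 233 higher to 529 and 466 with normexp. They were 545 and 443 for the probes above background everywhere, and 690 and 586 where the spread followed intensity. These member calls thus arose under settings that called more probes of the whole array. Leaving out each array in turn gave 0 to 1 lower, the 1 being CHD1L without siRNA replicate 2, and a lone array was then assumed to vary like the other groups. In Capan-1 the interval of the parental arrays gave 2 higher. The Capan-1 difference of CHD5 reversed to 0.11 with normexp and that of SMARCA5 to -0.0076 with spike-in scaling, and the CHD5 difference between the lines' responses reversed to -0.0165 with normexp. Spike-in scaling moved the median of all probes to -0.455 in the Capan-1 siRNA contrast and to 0.5 in the difference between the lines, and no scaling moved it to -0.195 for MIA PaCa-2 and -0.158 for Capan-1. These scalings move every probe of an array alike. The cause of these shifts was not tested.

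Between the parental lines spike-in scaling gave 14 members higher in place of 22, and the count of lower members was 13. The split of all probes moved the same way, to 8946 lower and 6842 higher in place of 7740 and 9780. Without each array in turn, 19 to 24 members were higher and 10 to 11 lower in parental cells, and 19 to 23 higher and 11 to 13 lower in siRNA-treated cells. In siRNA-treated cells the calls of ARID2, BAZ1A, CHD1L, CHD4 and INO80E were each lost without at least 1 array, and in parental cells those of 6 genes named with the arrays above. With normexp 14 of the 51 member probes called between the parental lines had a fold smaller by more than 1.5 times and none a larger one. The offset of 50 in this correction shrinks the folds of dim probes by construction, so that larger folds were hardly possible there. Called probes kept their direction under every alternative run, with 97 of 961 and 66 of 943 values losing the call in parental and siRNA-treated cells. The calls that rest on signal near background (ARID1B, CHD5 and ARID3C) could not be tested when signal on all 8 arrays was required.

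The labels number replicates 1 and 2 in each group, but same-numbered arrays hardly deviated together (correlation of deviations 0.0232 for MIA PaCa-2 and 0.0380 for Capan-1), so the numbers were not taken to pair samples. With the replicate number as a block the siRNA contrasts and their difference had 0 members lower and 0 higher, the parental lines 11 lower and 22 higher, and the siRNA-treated lines 12 lower and 22 higher.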
